A study of Mus musculus with 13 samples.

Results

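The transcriptional response to status epilepticus (SE), a prolonged convulsive seizure, was measured in the hippocampus of mice that lack Lin28a in the neural lineage. The comparison held 7 of the 13 mice of the series: 3 LIN28A-cKO mice after pilocarpine (SE-cKO) and 4 LIN28A-cKO mice after saline (sham-cKO), each sampled at day 3. All 7 carried Nestin-Cre and Lin28aloxP/loxP. In this model the Nestin promoter drives Cre in neural progenitors, so the deletion is inherited by their descendants throughout the brain, mainly neurons, astrocytes and oligodendrocytes, and is not restricted to the hippocampus. The other 6 mice, 3 SE-WT and 3 sham-WT, were Nestin-Cre::Lin28a+/+ and also carried Cre. All were on a C57BL/6N background and were 6 weeks old at injection, by the study's methods. Pilocarpine, a muscarinic agonist, was given at 260 mg/kg to males and 280 mg/kg to females after scopolamine methyl nitrate and terbutaline. Behavioral seizures were stopped with diazepam, and only mice that entered SE were kept. Sex is not labelled per mouse. RNA came from whole hippocampi, and gene levels are given as CPM, the read counts of a gene relative to the library total after a correction for composition. A lower level of a cell-type gene in such bulk RNA cannot distinguish fewer cells from less RNA per cell. Because CPM are relative, it also cannot distinguish these from more RNA of other cells.

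The product of Lin28a binds RNA, keeps let-7 microRNAs from being processed to their mature form and acts in stem and progenitor cells. Prolonged seizures injure hippocampal neurons, most readily in the CA fields and the hilus, and within days astrocytes and microglia become reactive and many glia divide. Reactive astrocytes build intermediate filaments and secrete matrix and immune mediators, whereas microglia clear debris through complement, scavenger receptors and lysosomal proteases. Surviving neurons alter their channels, receptors and neuropeptides.

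Lin28a had 0 counts in all 7 LIN28A-cKO libraries. It was also at 0 in the sham-WT libraries and at a mean of 0.012 CPM in SE-WT, so its level does not check the genotype labels. These libraries held 61649525 to 81994736 counts. Hippocampal identity was checked with 10 genes, and each was detected in every library, among them Prox1 of granule cells (69.4, 116, 48.2 and 86.6 CPM in sham-cKO replicates 1 to 4 and 61.7, 97.9 and 95.1 CPM in SE-cKO replicates 1 to 3) and Slc17a7 of glutamatergic neurons. In sham-cKO replicate 2, genes of thalamic neurons lay 2.86 log2 units above the sham-cKO mean, against -1.05 to -0.21 in the other 6 libraries. Genes of choroid plexus were high in sham-cKO replicate 3 (4.00) and SE-cKO replicate 1 (2.75). In SE-cKO replicate 3, whose title is styled differently, mitochondrial rRNA took 3.92% of counts against 0.486% to 1.18% in the others, and 27100 genes were detected against 23646 to 24546. Xist was at 0.309, 0.317, 309.8 and 1.91 CPM in sham-cKO and 0, 510.3 and 333 CPM in SE-cKO, so the sexes were unevenly spread over the groups. Counts of called genes were repeated without sham-cKO replicate 2, high in thalamic genes, and SE-cKO replicate 3, high in mitochondrial rRNA. This repeat keeps both libraries high in choroid plexus genes, and it is given below for part of the lists.

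More genes rose than fell after SE, and the rises were larger than the falls. Of 21307 genes tested, 2937 rose (13.8%) and 1901 fell (8.92%) in SE-cKO against sham-cKO at an adjusted p under 0.05 (edgeR quasi-likelihood test, Benjamini-Hochberg over all genes tested). Without sham-cKO replicate 2 and SE-cKO replicate 3, the counts were 2892 and 1919. A change given for a gene below, also where it stands in parentheses after the CPM, is the fitted log2 fold change of this comparison, with the adjusted p of the same edgeR test. Genes that rose had a median log2 fold change of 1.65, and genes that fell of -0.73, while the median over all genes tested was -0.000587. A test against a 2-fold change passed 1158 rises (5.43% of genes tested) and 51 falls (0.239%). Fitted changes of at least 8-fold were found for 677 genes that rose and 23 that fell. The CPM of the groups did not overlap for 7363 of the 21307 genes tested, and overlapped for 97 of the 4838 called. Non-overlap, stated below for named genes, is thus the usual case for a called gene. Together the genes that rose took 5.22% to 5.56% of the counts in sham-cKO and 13.1% to 14.9% in SE-cKO, and the genes that fell took 25.7% to 28.0% and 16.2% to 17.3%. Protein-coding genes were called more often than long noncoding RNAs. Among 15993 of the former 2706 rose and 1736 fell, and among 3280 of the latter 113 rose and 135 fell. These classes were not matched for level.

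**Figure D1:**
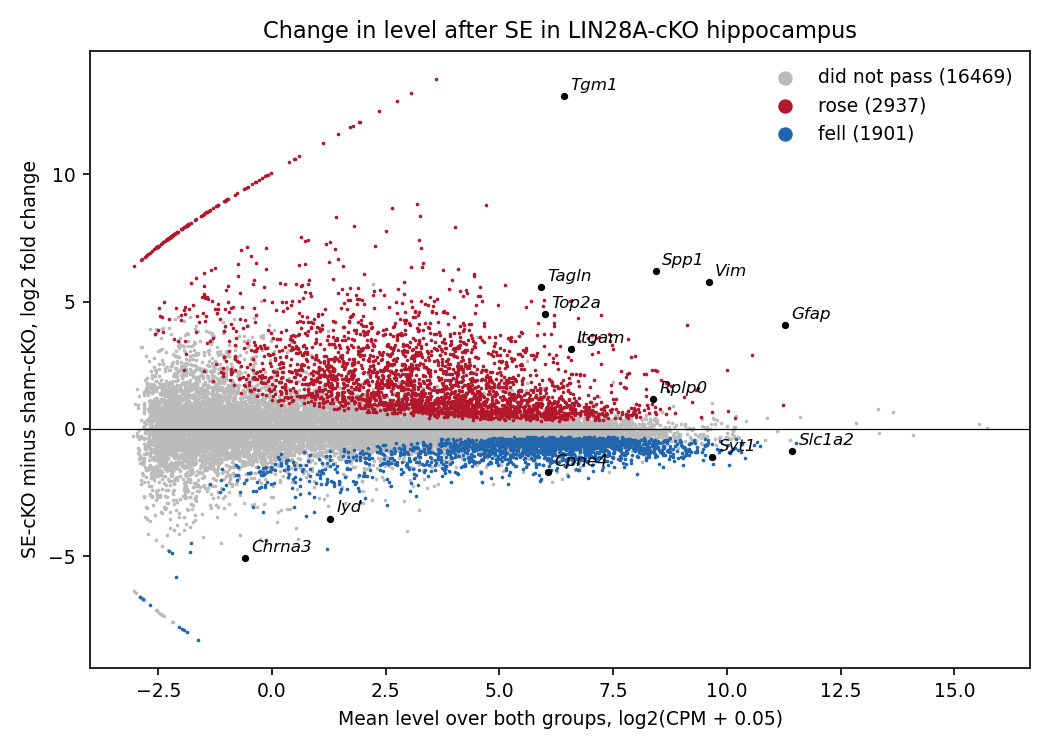
Each point is 1 of the 21307 genes tested, placed by its mean level over both groups (x axis, log2 of CPM + 0.05) and its fitted log2 fold change in SE-cKO against sham-cKO (y axis). Genes that rose (2937, red) extend far above those that fell (1901, blue) extend below 0, and the straight oblique rows hold genes with 0 counts in all libraries of 1 group, whose fitted fold depends on the prior count.

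To describe this response, 38 lists of genes for cell types and functions were examined. They were chosen with earlier results of these data known, so their tallies and ranks describe the response and do not test it. Counts of list members called stand beside the shares of all genes tested, of which 13.8% rose and 8.92% fell. For each library, the level of a list is the median, over the tested genes, of the deviation in log2 CPM from the sham-cKO mean of the gene. Lists of reactive glia, interferon-stimulated genes and the cell cycle lay above every sham-cKO library in all 3 SE-cKO libraries, and the lists of ion channels, transmitter receptors and vesicle release lay below.

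**Figure D2:**
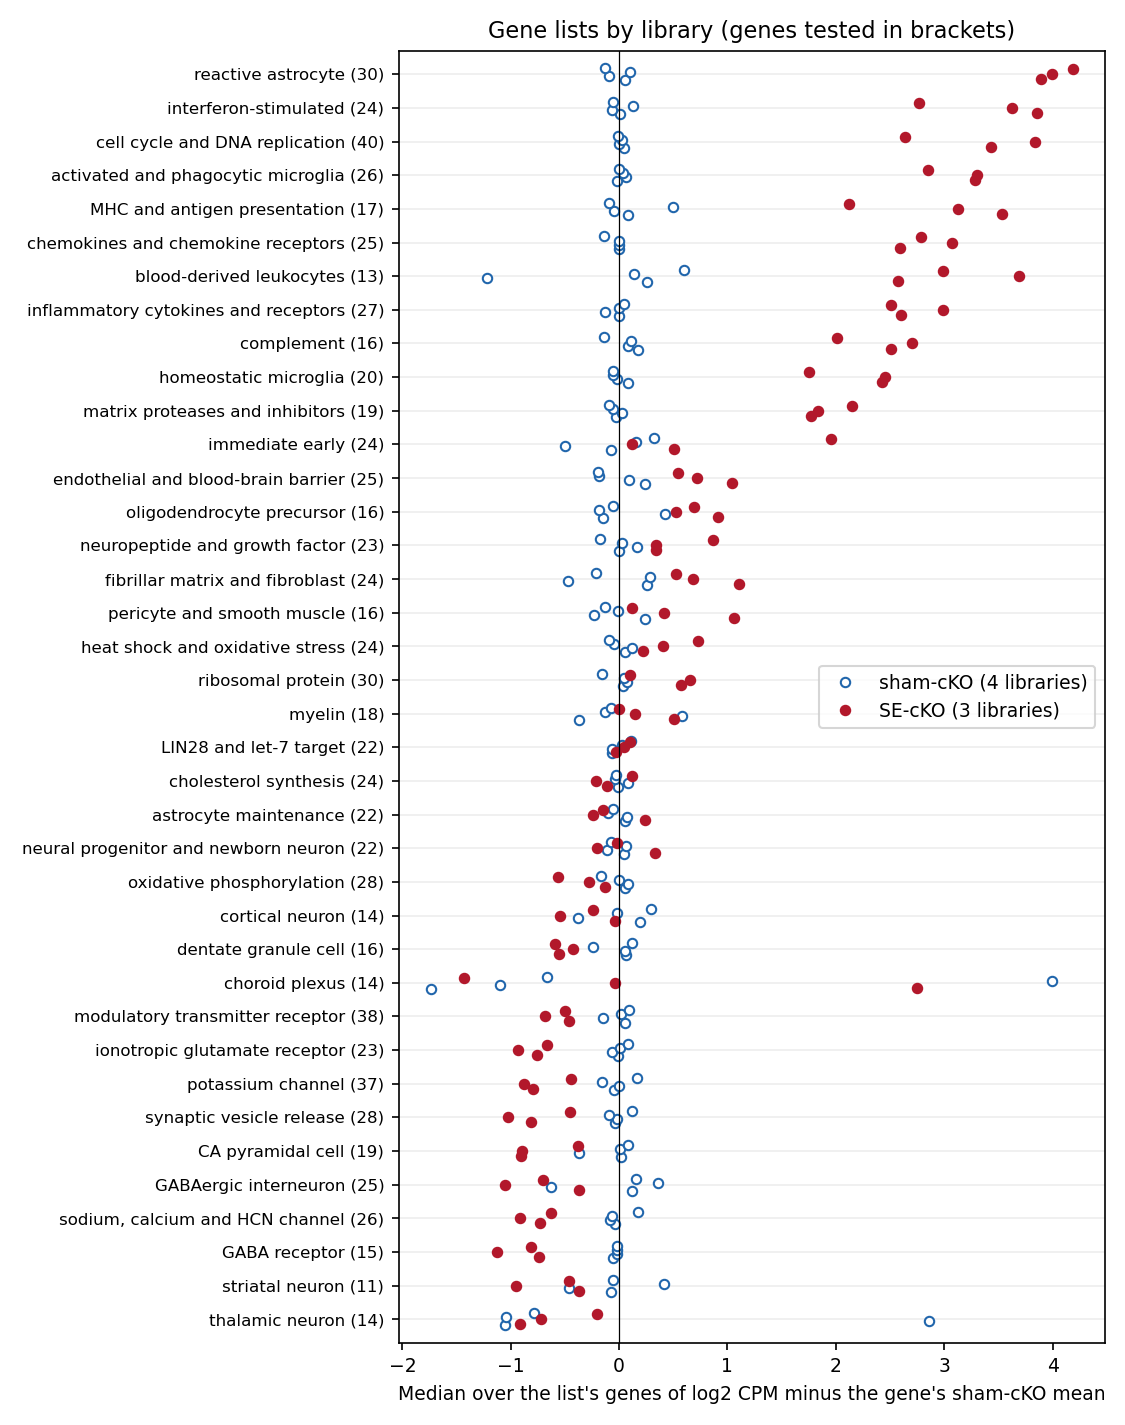
Level of 38 gene lists in each of 4 sham-cKO (open) and 3 SE-cKO (filled) libraries (x axis, median deviation in log2 CPM from each gene's mean in sham-cKO), ordered by median change with the number of genes tested in brackets. The reactive astrocyte list reached 3.90 to 4.19 in SE-cKO, the GABA receptor list -1.12 to -0.74, and the thalamic list was high only in sham-cKO replicate 2 (2.86).

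Reactive astrocyte genes showed the highest median among the 38 lists: all 30 tested rose, with a median log2 fold change of 4.06, where 13.8% of all genes rose. Gfap, the astrocytic intermediate filament gene on chromosome 11 from 102887336 to 102897200 (GRCm38), was at 292, 280.1, 233 and 317 CPM in sham-cKO and 4746, 4351 and 4952 CPM in SE-cKO. The 3 SE-cKO libraries lay within a narrow band, and none approached the sham-cKO libraries; the log2 fold change was 4.06 (standard error 0.14, adjusted p = 6.38e-06). Vim, a second filament gene (chromosome 2 from 13574311 to 13582826), was at 28.2, 23.7, 32.3 and 28.8 CPM in sham-cKO and 1352, 1749 and 1485 CPM in SE-cKO and changed by 5.76 (standard error 0.16, adjusted p = 3.62e-06). Tm4sf1, a small tetraspan membrane protein, was at 13, 12.3, 14.8 and 10.7 CPM in sham-cKO and 98.8, 113 and 92.5 CPM in SE-cKO, and Clcf1, a cytokine of the IL-6 family that signals to STAT3, was at 0.210, 0.190, 0.278 and 0.216 CPM in sham-cKO and 7.02, 6.75 and 8.91 CPM in SE-cKO. Tm4sf1 changed by 3.00 (standard error 0.14, adjusted p = 1.35e-05) and Clcf1 by 5.07 (standard error 0.26, adjusted p = 1.62e-05). Tgm1, a transglutaminase gene, had 5 counts in sham-cKO replicate 1 and 0 in the other sham-cKO libraries, but 154, 226 and 133 CPM in SE-cKO. The SE-cKO libraries were far above all sham-cKO libraries for each of these genes. Stat3 and its feedback inhibitor Socs3 also rose (log2 fold changes 2.11 and 5.66), as did the metalloprotease inhibitor Timp1 (8.79), the iron-binding protein Lcn2 (5.51) and the matrix receptor Cd44 (4.14). Without sham-cKO replicate 2 and SE-cKO replicate 3, 27 of the 30 were called.

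The promoter of Gfap is shown because it carries a palindromic STAT half-site pair, TTCNNNGAA, in capitals. The 300 bases run from 250 before to 50 after the annotated start (RefSeq, GRCm38.p6, minus strand, chr11:102897151-102897450).
Gfap: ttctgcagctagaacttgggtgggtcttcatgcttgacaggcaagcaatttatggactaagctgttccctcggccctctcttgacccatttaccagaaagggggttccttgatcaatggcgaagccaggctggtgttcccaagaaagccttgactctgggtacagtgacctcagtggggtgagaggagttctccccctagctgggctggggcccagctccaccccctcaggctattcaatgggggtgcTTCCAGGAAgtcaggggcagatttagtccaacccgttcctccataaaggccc
Of the 30 reactive astrocyte genes, 26 had 34 promoters in the table, and 7 of these (20.6%) held this motif on either strand, beside 8.30% of all 32851 promoters. The AP-1 letters TGANTCA were in 6 of the 34 (17.6%) and in 7.81% of all promoters. A match describes letters in this window and is no evidence of binding.

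Genes for the resting functions of astrocytes did not move as a group. Of 22 tested, 5 rose and 6 fell, and the median was -0.05. Leaving out replicate 1, 3 or 4 of sham-cKO, or replicate 1 or 2 of SE-cKO, gave 3 rises. Aldh1l1, a folate enzyme used as a pan-astrocyte marker, was at 59.1, 60.5, 52.8 and 53.2 CPM in sham-cKO and 217, 234 and 188 CPM in SE-cKO, and Aqp4, the water channel of astrocyte endfeet, at 314, 429.7, 257 and 329 CPM in sham-cKO and 1027, 916 and 895 CPM in SE-cKO. Both were higher in every SE-cKO library than in any sham-cKO library, with a change of 1.92 (standard error 0.11, adjusted p = 2.51e-05) for Aldh1l1 and 1.51 (standard error 0.17, adjusted p = 0.00048) for Aqp4. The growth factor receptor Fgfr3 (0.59, adjusted p = 0.00922) and Mlc1 (0.57, adjusted p = 0.0476) rose as well, and the call of Mlc1 held in 8 of 17 alternative analyses. In contrast, some genes of transmitter uptake and synapse-associated secretion fell. Slc6a11, the astrocytic GABA transporter GAT3, was at 54.1, 179, 56.2 and 52.2 CPM in sham-cKO and 30.3, 19.4 and 26.6 CPM in SE-cKO (-1.75, standard error 0.47, adjusted p = 0.0299), with sham-cKO replicate 2 far above the other sham-cKO libraries. Gpc5, a glypican, and Sparcl1, a secreted synapse-promoting protein, changed by -1.38 (adjusted p = 0.00142) and -0.90 (adjusted p = 0.00502). Slc1a2, the main glutamate transporter of astrocytes, was at 3804, 2866, 3360 and 4305 CPM in sham-cKO and 2068, 1662 and 2175 CPM in SE-cKO. Its highest SE-cKO library lay below its lowest sham-cKO library, and the log2 fold change was -0.86 (standard error 0.17, adjusted p = 0.00767). Slc1a3, the other astrocytic glutamate transporter, changed by 0.43 (adjusted p = 0.142) and did not pass.

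Microglial genes rose almost without exception. All 20 homeostatic microglia genes tested rose (median 2.19), as did 25 of 26 genes of activated and phagocytic microglia (median 3.22). Itgam, the complement receptor subunit CD11b on chromosome 7 from 128062640 to 128118491, was at 20.6, 18.1, 18.2 and 20.3 CPM in sham-cKO and 162, 179 and 168 CPM in SE-cKO, and its log2 fold change was 3.14 (standard error 0.10, adjusted p = 6.16e-06). Olfml3 and Fcrls, both enriched in brain-resident microglia, changed by 3.46 (adjusted p = 1.87e-05) and 3.63 (adjusted p = 2.00e-05). The purinergic receptor P2ry12, often lower in activated microglia, changed by 0.75 (adjusted p = 0.0128), and Siglech by 0.74 (adjusted p = 0.00926). Among activation genes, Gpnmb, a glycoprotein of phagocytes, was at 3.19, 3.97, 2.24 and 2.99 CPM in sham-cKO and 80.5, 133 and 90.3 CPM in SE-cKO (log2 fold change 5.03, standard error 0.25, adjusted p = 1.35e-05). Spp1, which encodes osteopontin, was at 12.9, 4.62, 9.85 and 9.74 CPM in sham-cKO and 757, 859 and 440.4 CPM in SE-cKO. SE-cKO replicate 3 was the lowest of the SE-cKO libraries for Spp1 and yet far above every sham-cKO library. The tetraspanins Cd9 and Cd63 changed by 3.03 (adjusted p = 1.11e-05) and 2.56 (adjusted p = 1.70e-05), the lysosomal protein Cd68 by 3.45 (adjusted p = 2.00e-05), and Csf1, the growth factor that maintains microglia, by 2.04 (adjusted p = 2.00e-05). Lpl, a lipase, was the member that did not pass (-0.17, adjusted p = 0.757).

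Genes of blood-derived leukocytes were near the limit of detection in sham-cKO and higher after SE. Of 20 listed, 13 passed the count filter, 8 of these rose and none fell. Their summed level was 2.739 to 6.997 CPM in sham-cKO and 35.2 to 105.0 CPM in SE-cKO. Ccr2, the chemokine receptor of inflammatory monocytes, was at 0.878, 0.253, 0.876 and 0.997 CPM in sham-cKO and 16.8, 31.3 and 5.76 CPM in SE-cKO (4.57 (standard error 0.62, adjusted p = 0.00126) on the log2 scale). F10, coagulation factor X, had 0 counts in every sham-cKO library and 1.43, 1.89 and 0.521 CPM in SE-cKO. Its level was at least 29.1-fold higher, taking 3 counts per library as the floor. Among the SE-cKO libraries, replicate 2 was the highest for 9 of the 13. The defining T cell and B cell genes Cd3e, Cd3g, Cd8a, Cd79a and Ms4a1 and the neutrophil gene Ly6g did not pass the filter. With SE-cKO replicate 3 left out, 5 of the 13 were called.

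Inflammatory mediators rose at the level of ligands, receptors and adaptors. Of 27 cytokine and receptor genes tested, 24 rose (median 2.72). Tnf had 0 counts in every sham-cKO library and 1.95, 2.89 and 2.68 CPM in SE-cKO, at least 56.9-fold higher. Its receptor Tnfrsf1a was at 3.08, 2.77, 3.58 and 3.47 CPM in sham-cKO and 30.6, 31.3 and 30.7 CPM in SE-cKO, with the SE-cKO libraries close together (log2 fold change 3.26, standard error 0.14, adjusted p = 1.35e-05). Tlr2, a pattern recognition receptor, was at 1.55, 1.04, 1.56 and 0.798 CPM in sham-cKO and 46.0, 49.1 and 44.6 CPM in SE-cKO (5.23, standard error 0.25, adjusted p = 1.35e-05), and its adaptor Myd88 changed by 2.31 (adjusted p = 6.80e-05). Il1rn, the antagonist of interleukin 1, was also at 0 in sham-cKO and at 1.91, 1.92 and 4.26 CPM in SE-cKO, with Il1b at a log2 fold change of 5.69 (adjusted p = 0.0139). Il6 (2.72, adjusted p = 0.355) and Casp1 (1.201, adjusted p = 0.211) did not pass.

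Of 25 chemokine and chemokine receptor genes, 15 rose and 1 fell. Ccl12, a ligand of CCR2, was at 0.247, 0.317, 0.264 and 0.233 CPM in sham-cKO and 12.99, 17.8 and 12.8 CPM in SE-cKO (5.77, standard error 0.24, adjusted p = 1.10e-05). The receptor Ccr1 changed by 3.69 (adjusted p = 0.00028). Ccl8, Ccl11, Ccl5 and Cxcl9 had 0 counts in every sham-cKO library, and their SE-cKO levels were at least 24.4-, 32.8-, 15.2- and 4.80-fold higher. The median of the list was 2.90 as fitted and 2.39 with these 4 genes at their bounds. Cxcl12, a homeostatic chemokine of stroma and neurons, fell, from 23.4, 21.7, 19.4 and 17.8 CPM to 13.9, 14.7 and 10.3 CPM (-0.67, adjusted p = 0.0241). Its call was lost without sham-cKO replicate 1 or SE-cKO replicate 3. Of 16 complement genes, 12 rose. C4b, a component of the classical pathway, was at 27.4, 24.3, 23.03 and 20.2 CPM in sham-cKO and 330, 369.6 and 252 CPM in SE-cKO (3.74, standard error 0.17, adjusted p = 1.35e-05), and C3, on which all complement pathways converge, at 0.124, 0.871, 1.03 and 0.665 CPM in sham-cKO and 50.9, 56.5 and 19.9 CPM in SE-cKO (5.99, standard error 0.63, adjusted p = 0.00035). The anaphylatoxin receptors C3ar1 and C5ar1 changed by 4.59 (adjusted p = 3.46e-05) and 5.26 (adjusted p = 0.000203), and the inhibitor Serping1 by 2.34 (adjusted p = 0.000175). Cd55, an inhibitor of complement on host cells, changed by -0.70 (adjusted p = 0.0743).

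Of the interferon-stimulated genes, 24 of 24 rose, with a median of 3.53, and all 24 were called in each of the 7 analyses that left out a library. Irf7, a transcription factor that amplifies interferon production, was at 1.01, 1.27, 1.24 and 0.848 CPM in sham-cKO and 34.7, 23.8 and 20.2 CPM in SE-cKO (4.58, standard error 0.25, adjusted p = 1.87e-05). Ifit1, which binds foreign RNA, was at 3.00, 2.09, 3.05 and 3.04 CPM in sham-cKO and 31.2, 30.5 and 19.8 CPM in SE-cKO, and Rsad2, the antiviral enzyme viperin, at 0.853, 0.839, 1.29 and 1.15 CPM in sham-cKO and 17.6, 11.7 and 10.4 CPM in SE-cKO. All SE-cKO libraries were above all sham-cKO libraries, and SE-cKO replicate 3 was the lowest of the 3 for each. The list level was 3.86, 3.63 and 2.77 in SE-cKO replicates 1 to 3. Oas3, which senses double-stranded RNA, had 0 counts in sham-cKO and 3.67, 2.56 and 2.58 CPM in SE-cKO, at least 66.6-fold higher. All 17 genes of MHC and antigen presentation rose as well (median 3.07). B2m, the shared light chain of MHC class I, was at 42.3, 48.5, 44.9 and 39.4 CPM in sham-cKO and 272, 282 and 216 CPM in SE-cKO (2.55, standard error 0.13, adjusted p = 1.52e-05). The class I heavy chains H2-K1 and H2-D1 changed by 2.78 (adjusted p = 2.25e-05) and 2.83 (adjusted p = 0.000105), the immunoproteasome subunit Psmb8 by 3.40 (adjusted p = 0.000203), and the class II chaperone Cd74 by 3.19 (adjusted p = 0.00626). Reads shared between near-identical class I genes, and between Ifit3 and Ifit3b, could have been split among copies by the authors' counting.

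The promoter of Isg15, an interferon-induced ubiquitin-like modifier at 0.297, 0.348, 0.0835 and 0.781 CPM in sham-cKO and 6.28, 9.46 and 5.02 CPM in SE-cKO, is shown because it holds 3 overlapping copies of the core letters of the interferon-stimulated response element, GAAANNGAA, in capitals (RefSeq, GRCm38.p6, minus strand, chr4:156200769-156201068).
Isg15: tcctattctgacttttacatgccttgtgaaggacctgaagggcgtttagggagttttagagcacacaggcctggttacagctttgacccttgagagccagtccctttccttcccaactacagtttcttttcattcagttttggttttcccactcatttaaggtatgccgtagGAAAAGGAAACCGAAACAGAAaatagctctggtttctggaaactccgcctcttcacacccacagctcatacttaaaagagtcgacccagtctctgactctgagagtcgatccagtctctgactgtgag
This core was in 14 of 20 promoters (70%) of the 18 list members with a sequence, and in 8.56% of all promoters of the same length.

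Cell cycle and DNA replication genes rose in nearly all cases. Of 40 tested, 37 rose and none fell (median 3.43). Their summed level was at most 165.1 CPM in the 4 sham-cKO libraries, which lay within a few CPM of each other, and 607 to 1374 CPM in SE-cKO. Top2a, the topoisomerase of dividing cells on chromosome 11 from 98992947 to 99024199, was at 4.96, 4.89, 5.80 and 5.82 CPM in sham-cKO and 114, 187 and 67.7 CPM in SE-cKO (4.52, standard error 0.32, adjusted p = 5.42e-05). Cenpf, a kinetochore protein, was at 2.23, 2.39, 2.66 and 2.88 CPM in sham-cKO and 35.1, 49.8 and 27.8 CPM in SE-cKO, and Ccna2, the S-phase and G2 cyclin, at 2.26, 1.60, 2.14 and 1.96 CPM in sham-cKO and 37.6, 42.6 and 19.3 CPM in SE-cKO. The groups did not overlap, and SE-cKO replicate 2 was the highest library for 37 of the 40 genes and replicate 3 for none. Ube2c and Cdc20, which act with the anaphase-promoting complex at mitotic exit, changed by 5.11 (adjusted p = 5.81e-05) and 3.88 (adjusted p = 6.54e-05). The fitted rises of the replication genes Pcna (1.16), Mcm4 (1.31) and Mcm6 (1.203) stood beside those of the mitotic kinases Aurkb (4.74) and Cdk1 (5.01). E2f1 (0.89, adjusted p = 0.052), Ccne1 (0.05, adjusted p = 0.898) and Ccne2 (0.48, adjusted p = 0.315) did not pass.

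Promoters of a mitotic gene and a replication gene of this list are shown because they carry the letters known from each class. That of Ccnb2, cyclin B2 (0.928, 0.918, 1.04 and 0.831 CPM in sham-cKO and 13.5, 15.5 and 5.67 CPM in SE-cKO), has the cell cycle homology region TTTGAA in 2 places and the CCAAT box in 3, in capitals (RefSeq, GRCm38.p6, minus strand, chr9:70421505-70421804). That of Mcm6, a subunit of the replicative helicase (22.3, 20.9, 17.5 and 22.7 CPM in sham-cKO and 52.8, 62.3 and 29.0 CPM in SE-cKO), has the E2F letters TTTNNCGC 3 times, 2 of them overlapping on opposite strands, and CCAAT in 2 places on the opposite strand, in capitals (minus strand, chr1:128359656-128359955).
Ccnb2: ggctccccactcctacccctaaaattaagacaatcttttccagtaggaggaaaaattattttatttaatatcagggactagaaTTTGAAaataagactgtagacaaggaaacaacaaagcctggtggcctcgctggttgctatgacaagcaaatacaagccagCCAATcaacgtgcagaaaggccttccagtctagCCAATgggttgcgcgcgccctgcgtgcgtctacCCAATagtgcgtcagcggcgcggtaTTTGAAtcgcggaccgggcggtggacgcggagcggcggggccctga
Mcm6: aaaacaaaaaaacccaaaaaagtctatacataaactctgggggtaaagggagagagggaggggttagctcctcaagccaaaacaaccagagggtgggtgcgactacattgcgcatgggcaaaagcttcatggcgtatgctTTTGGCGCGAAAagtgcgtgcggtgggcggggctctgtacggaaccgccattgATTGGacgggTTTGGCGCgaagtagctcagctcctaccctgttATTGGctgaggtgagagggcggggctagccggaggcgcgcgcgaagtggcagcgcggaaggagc
On either strand, TTTGAA was in 16 of 34 promoters (47.1%) of 32 list members and in 17.9% of all promoters, and its variant TTCGAA in 4 (11.8%) and 1.56%. The E2F letters were in 8 (23.5%) and 5.17%, and CCAAT in 26 (76.5%) and 37.4%.

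Matrix and vessel genes changed in part. Of 24 genes of fibrillar matrix and fibroblasts, 11 rose (median 0.58). Col12a1, a fibril-associated collagen on chromosome 9 from 79598987 to 79721141, was at 21.9, 18.6, 18.1 and 16.7 CPM in sham-cKO and 96.0, 189 and 240 CPM in SE-cKO (3.22, standard error 0.28, adjusted p = 0.000131). Fn1, fibronectin, was at 79.1, 31.2, 58.1 and 76.5 CPM in sham-cKO and 368, 658 and 310.2 CPM in SE-cKO, and Thbs1, thrombospondin 1, at 5.65, 3.97, 8.22 and 5.47 CPM in sham-cKO and 28.3, 42.6 and 141 CPM in SE-cKO, with SE-cKO replicate 3 far above the other SE-cKO libraries for Thbs1. The major fibroblast genes Col1a1 (0.42, adjusted p = 0.447), Col1a2 (0.35, adjusted p = 0.494) and Dcn (0.33, adjusted p = 0.711) did not pass. Of 19 matrix proteases and inhibitors, 13 rose (median 1.82). Plau, the urokinase-type plasminogen activator, was at 3.06, 1.96, 1.88 and 3.32 CPM in sham-cKO and 14.6, 12.9 and 11.1 CPM in SE-cKO (2.33, standard error 0.26, adjusted p = 0.000418). Mmp3, stromelysin, had 0 counts in sham-cKO and 1.92, 4.04 and 2.28 CPM in SE-cKO, at least 62.3-fold higher, whereas Mmp9 changed by -0.08 (adjusted p = 0.884) and did not pass.

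Among 25 endothelial and blood-brain barrier genes, 12 rose and none fell (median 0.84). The leukocyte adhesion molecules led: Icam1 was at 1.52, 2.79, 2.1 and 1.86 CPM in sham-cKO and 17.7, 18.8 and 14.0 CPM in SE-cKO (3.03, standard error 0.24, adjusted p = 8.73e-05), Vcam1 at 48.6, 37.0, 44.5 and 29.9 CPM in sham-cKO and 112, 156 and 117 CPM in SE-cKO (1.68, standard error 0.19, adjusted p = 0.000466), and Selp, P-selectin, at 0.0989, 0, 0 and 0 CPM in sham-cKO and 3.30, 6.27 and 4.68 CPM in SE-cKO (7.33, standard error 0.96, adjusted p = 0.00101).
The junction gene Cldn5 (1.63, adjusted p = 0.0251), the lipid transporter Mfsd2a (1.40, adjusted p = 0.00359) and Cdh5 (1.03, adjusted p = 0.00891) rose too, while Abcb1a (-0.11, adjusted p = 0.849), Ocln (-0.25, adjusted p = 0.449) and Flt1 (-0.08, adjusted p = 0.868) did not pass. Of 16 pericyte and smooth muscle genes, 4 rose, or 7 without SE-cKO replicate 3. Tagln, an actin-binding protein of smooth muscle on chromosome 9 from 45929628 to 45936058, was at 3.72, 1.95, 2.60 and 1.51 CPM in sham-cKO and 116, 135 and 101 CPM in SE-cKO (5.58, standard error 0.31, adjusted p = 1.87e-05). Cspg4, the NG2 proteoglycan of pericytes and oligodendrocyte precursors, was at 25.2, 19.8, 23.3 and 24.6 CPM in sham-cKO and 57.7, 54.6 and 54.9 CPM in SE-cKO (1.26, standard error 0.12, adjusted p = 0.000182). The pericyte genes Pdgfrb (0.36, adjusted p = 0.163), Rgs5 (0.10, adjusted p = 0.741) and Vtn (0.06, adjusted p = 0.923) did not pass, and Acta2 changed by 0.88 (adjusted p = 0.0867). Myh11, a smooth muscle myosin, went the other way and did not pass. Its log2 fold change was -1.975 to -0.987 over 17 alternative analyses, and 4 of them called it.

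In the oligodendrocyte lineage, 8 of 16 precursor genes rose and 1 fell (median 0.78), whereas 3 of 18 myelin genes rose (median 0.16). Over all genes tested, 13.8% rose. Olig1, a lineage transcription factor, was at 38.9, 56.9, 35.9 and 40.9 CPM in sham-cKO and 112, 81.3 and 85.2 CPM in SE-cKO (1.10, standard error 0.18, adjusted p = 0.00359), and Gpr17, which marks cells committed to differentiate, at 48.9, 48.7, 36.8 and 53.5 CPM in sham-cKO and 136, 131 and 79.4 CPM in SE-cKO (1.30, standard error 0.20, adjusted p = 0.00265). Bcan, the perineuronal proteoglycan brevican, fell instead, from 136, 138, 114 and 131 CPM to 82.2, 29.0 and 34.6 CPM (-1.42, adjusted p = 0.0174), and this call was lost without SE-cKO replicate 2 or without SE-cKO replicate 3. Trf, the iron carrier transferrin, was at 246, 522, 331 and 276 CPM in sham-cKO and 1903, 2046 and 1218 CPM in SE-cKO (2.33, standard error 0.29, adjusted p = 0.000725), and Cldn11, the tight junction protein of myelin, at 86.1, 156, 96.1 and 96.9 CPM in sham-cKO and 422, 276 and 289.5 CPM in SE-cKO (1.60, standard error 0.24, adjusted p = 0.00185). The myelin proteins Mbp (-0.10, adjusted p = 0.81) and Mog (0.15, adjusted p = 0.742) did not pass. Sham-cKO replicate 2, high in thalamic genes, was the highest sham-cKO library for Trf, Cldn11, Mbp and Mog. Without it and SE-cKO replicate 3, 6 myelin and 11 precursor genes rose.

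**Figure D3:**
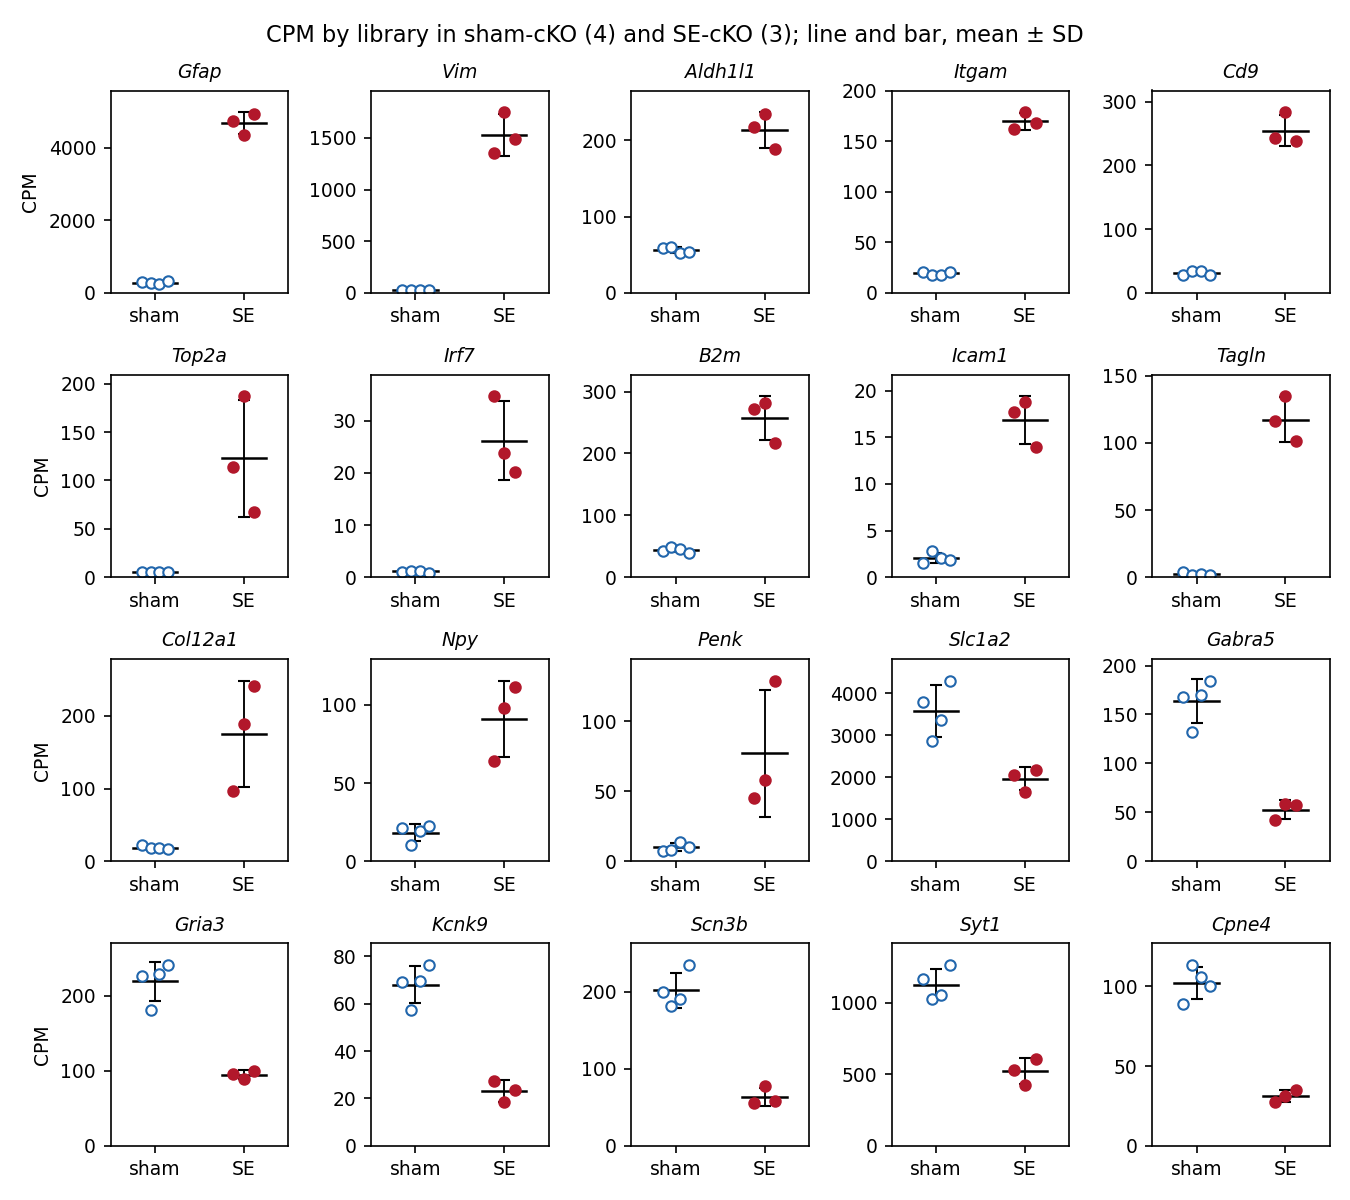
CPM of 20 genes in each of 4 sham-cKO (open) and 3 SE-cKO (filled) libraries on linear axes from 0, with horizontal lines at the mean and bars of ± SD. The first 13 genes, from Gfap to Penk, were higher in every SE-cKO library, and the last 7, from Slc1a2 to Cpne4, were lower in every SE-cKO library.

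Genes of hippocampal principal neurons fell or did not pass, and none rose. Of 19 CA pyramidal genes, 6 fell (median -0.79, where 8.92% of all genes fell), and 10 fell without sham-cKO replicate 2, alone or with SE-cKO replicate 3. Cpne4, a calcium-dependent membrane-binding protein, was at 89.2, 114, 106 and 100.1 CPM in sham-cKO and 27.2, 31.1 and 35.2 CPM in SE-cKO (-1.71, standard error 0.13, adjusted p = 8.77e-05). Iyd, an iodotyrosine deiodinase, was at 2.78, 5.76, 3.63 and 5.29 CPM in sham-cKO and 0.281, 0.546 and 0.298 CPM in SE-cKO (-3.53, standard error 0.41, adjusted p = 0.000573). Neurod6, a transcription factor of pyramidal neurons, was at 92.2, 85.3, 90.6 and 96.6 CPM in sham-cKO and 28.2, 16.9 and 33.5 CPM in SE-cKO, and Nrip3 at 294, 408, 308 and 252 CPM in sham-cKO and 129, 105 and 134 CPM in SE-cKO, with changes of -1.80 (adjusted p = 0.000654) and -1.36 (adjusted p = 0.00112). In each case the SE-cKO libraries were below all sham-cKO libraries. The CA1 genes behaved unequally: Fibcd1 was at 93.4, 53.3, 138 and 99.5 CPM in sham-cKO and 41.2, 22.3 and 10.6 CPM in SE-cKO (-1.96, standard error 0.47, adjusted p = 0.018), whereas Wfs1 changed by -0.14 (adjusted p = 0.865) and did not pass.

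Of 16 granule cell genes, 7 fell (median -0.52). Dsp, desmoplakin, was at 46.3, 50.1, 35.2 and 78.0 CPM in sham-cKO and 11.5, 21.2 and 9.96 CPM in SE-cKO (-1.88, standard error 0.34, adjusted p = 0.00551), and Lct, lactase, a marker of granule cells in this tissue, at 50.9, 70.1, 30.6 and 86.7 CPM in sham-cKO and 6.81, 23.3 and 9.52 CPM in SE-cKO (-2.17, standard error 0.49, adjusted p = 0.0143). Calb1, the calcium buffer calbindin, was at 152, 149, 142 and 114 CPM in sham-cKO and 88.5, 38.4 and 33.6 CPM in SE-cKO (-1.38, standard error 0.33, adjusted p = 0.0169). The highest SE-cKO library remained below the lowest sham-cKO library for all 3. The call of Lct was lost without SE-cKO replicate 3 and that of Calb1 without SE-cKO replicate 2. Without sham-cKO replicate 2 and SE-cKO replicate 3, 4 granule cell genes fell. Prox1 (0.08, adjusted p = 0.876), C1ql2 (-0.01, adjusted p = 0.973) and C1ql3 (-0.31, adjusted p = 0.424), which also mark granule cells, did not pass.

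Among 25 interneuron genes, 5 fell and 3 rose (median -0.81). The falls numbered 9 without sham-cKO replicate 2, 3 without SE-cKO replicate 3 and 8 without both. Npy, a neuropeptide of interneurons that granule cells also make after seizures, was at 21.1, 10.5, 19.5 and 22.6 CPM in sham-cKO and 64.2, 97.6 and 111 CPM in SE-cKO (2.31, standard error 0.28, adjusted p = 0.000699), higher in every SE-cKO library. Erbb4, a neuregulin receptor, was at 158, 94.9, 165 and 188 CPM in sham-cKO and 80.1, 49.4 and 48.5 CPM in SE-cKO (-1.35, standard error 0.27, adjusted p = 0.00801), and Cck, the peptide of basket cells and some pyramidal neurons, at 149.6, 166, 162 and 163 CPM in sham-cKO and 90.5, 54.6 and 98.7 CPM in SE-cKO (-0.98, standard error 0.19, adjusted p = 0.00772). Pvalb, parvalbumin, changed by -1.05 (adjusted p = 0.0164) and Reln, reelin, by -1.02 (adjusted p = 0.045), while Sst (-0.08, adjusted p = 0.904), Gad1 (-0.59, adjusted p = 0.115) and Gad2 (-0.50, adjusted p = 0.214) did not pass. Of 22 genes of neural progenitors and newborn neurons, 4 rose and 2 fell, or 5 fell without SE-cKO replicate 1. Over all genes tested, 13.8% rose and 8.92% fell. Elavl2, a neuronal RNA-binding protein, was at 90.4, 121, 90.7 and 90.1 CPM in sham-cKO and 39.7, 39.2 and 49.6 CPM in SE-cKO (-1.196, standard error 0.15, adjusted p = 0.000894). Neurod1, a factor of newborn granule cells, changed by -0.99 (adjusted p = 0.00452) and Sox9, a factor of progenitors and astrocytes, by 0.92 (adjusted p = 0.00457). The progenitor and neuroblast genes Dcx (-0.53, adjusted p = 0.114), Eomes (-1.31, adjusted p = 0.496) and Hopx (0.13, adjusted p = 0.735) did not pass.

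About as many genes of receptors, channels and release machinery fell as did not pass the test. Over 6 lists of such genes, 83 of 167 fell, 2 rose, and 156 had a fitted change below 0. Their median log2 fold change was -0.74, and 4 passed the test against a 2-fold change. Ionotropic glutamate receptor genes fell in 15 of 23 cases (median -0.74). Gria3, an AMPA receptor subunit, was at 226, 181, 229 and 241 CPM in sham-cKO and 95.7, 88.6 and 99.9 CPM in SE-cKO (-1.21, standard error 0.13, adjusted p = 0.000334). Grin2b, an NMDA receptor subunit, was at 922, 832, 1029 and 1145 CPM in sham-cKO and 396, 542 and 513 CPM in SE-cKO (-1.02, standard error 0.16, adjusted p = 0.00256), and Gria4 and the orphan subunit Grid1 changed by -1.03 (adjusted p = 0.00151) and -0.78 (adjusted p = 0.00121). Each SE-cKO library lay below each sham-cKO library for all 4. The kainate receptor subunits Grik3 (-0.32, adjusted p = 0.435) and Grik4 (-0.14, adjusted p = 0.688) did not pass.

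GABA receptor genes fell in 12 of 15 cases (median -0.82), and the 4 sham-cKO libraries differed little in the level of this list (-0.05 to -0.02). Gabra5, the subunit of extrasynaptic receptors of pyramidal neurons on chromosome 7 from 57407669 to 57591016, was at 168, 131.9, 169.6 and 184 CPM in sham-cKO and 42.0, 59.1 and 57.8 CPM in SE-cKO (-1.63, standard error 0.17, adjusted p = 0.00032). Gphn, gephyrin, the scaffold of inhibitory synapses, was at 105, 108, 105 and 108 CPM in sham-cKO and 78.4, 76.8 and 75.6 CPM in SE-cKO (-0.47, standard error 0.09, adjusted p = 0.00566). The fall of Gphn was small but lay outside the spread of both groups. Gabrd, the delta subunit of granule cells, was at 26.0, 88.0, 18.6 and 26.0 CPM in sham-cKO and 10.8, 10.1 and 6.84 CPM in SE-cKO (-2.097, standard error 0.54, adjusted p = 0.0249), with sham-cKO replicate 2 far above the others, while Gabra2 (-0.15, adjusted p = 0.745) did not pass. Without SE-cKO replicate 2, 6 of the 15 were called.

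Of 38 receptors for acetylcholine, monoamines, histamine and metabotropic glutamate signaling, 6 fell and 1 rose. With SE-cKO replicate 2 left out, 3 fell, while 12 fell in the absence of both sham-cKO replicate 2 and SE-cKO replicate 3. Adra1d, an adrenergic receptor, was at 21.1, 17.9, 23.4 and 19.6 CPM in sham-cKO and 9.66, 7.19 and 5.39 CPM in SE-cKO (-1.47, standard error 0.22, adjusted p = 0.00183), and Grm5, a metabotropic glutamate receptor, at 546, 345, 570 and 546 CPM in sham-cKO and 302, 254 and 215 CPM in SE-cKO (-0.96, standard error 0.20, adjusted p = 0.00986). The muscarinic receptors, through which pilocarpine acts, changed by -0.70 (adjusted p = 0.131) for Chrm1, -1.33 (adjusted p = 0.0507) for Chrm2 and -0.84 (adjusted p = 0.0599) for Chrm3, and none of these passed. Drd1, a dopamine receptor, rose from 12.3, 6.24, 10.3 and 11.9 CPM to 18.8, 15.6 and 26.4 CPM (0.99, adjusted p = 0.0292), and this call was lost when replicate 3 or 4 of sham-cKO was left out, or replicate 1 or 3 of SE-cKO.

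Among potassium channel genes, 18 of 37 fell and 1 rose (median -0.74). With SE-cKO replicate 2 left out, 10 fell, while 24 fell in the absence of both sham-cKO replicate 2 and SE-cKO replicate 3. Kcnip2, an auxiliary subunit of A-type channels, was at 85.2, 71.3, 93.0 and 80.9 CPM in sham-cKO and 23.7, 28.5 and 20.5 CPM in SE-cKO (-1.77, standard error 0.15, adjusted p = 0.000123). Kcnk9, the leak channel TASK-3 on chromosome 15 from 72501873 to 72548614, was at 69.0, 57.2, 69.7 and 76.4 CPM in sham-cKO and 27.4, 18.4 and 23.4 CPM in SE-cKO (-1.56, standard error 0.17, adjusted p = 0.000368). Kcnab1 and Kcnab2, the beta subunits of Shaker-type channels, changed by -1.27 (adjusted p = 0.000465) and -1.09 (adjusted p = 0.000719), and the M-current genes Kcnq3 and Kcnq5 by -1.11 (adjusted p = 0.00607) and -1.42 (adjusted p = 0.0066). Kcnip3 was the exception (0.64, adjusted p = 0.0376), and its call held in 5 of 17 alternative analyses. Sodium, calcium and HCN channel genes fell in 16 of 26 cases (median -0.82). Scn3b, a sodium channel beta subunit, was at 199, 181, 191 and 234 CPM in sham-cKO and 55.1, 77.2 and 57.7 CPM in SE-cKO (-1.67, standard error 0.16, adjusted p = 0.000198), and Scn2a, a main alpha subunit of excitatory neurons, at 762, 531, 723 and 761 CPM in sham-cKO and 331, 336 and 301 CPM in SE-cKO (-1.10, standard error 0.15, adjusted p = 0.00124). Scn8a changed by -0.93 (adjusted p = 0.00216), the calcium channel subunit Cacna2d3 by -1.12 (adjusted p = 0.00223) and Pex5l, which regulates HCN channel trafficking, by -0.94 (adjusted p = 0.00217).

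Synaptic vesicle genes fell in 16 of 28 cases (median -0.77), or 10 without SE-cKO replicate 2. Syt1, the calcium sensor of fast release, was at 1165, 1023, 1050 and 1263 CPM in sham-cKO and 529.5, 423 and 604 CPM in SE-cKO (-1.12, standard error 0.15, adjusted p = 0.0012), and Syn2, a synapsin, at 736, 502, 650.2 and 588 CPM in sham-cKO and 334, 257 and 274 CPM in SE-cKO (-1.10, standard error 0.16, adjusted p = 0.00179). Sv2a, a vesicle glycoprotein and the target of the antiseizure drug levetiracetam, was at 283, 318, 267 and 302 CPM in sham-cKO and 188, 157 and 189.7 CPM in SE-cKO (-0.71, standard error 0.12, adjusted p = 0.00324). Pclo, an active zone scaffold, and Rab3a changed by -1.04 (adjusted p = 0.00169) and -0.97 (adjusted p = 0.00228). No sham-cKO library overlapped the SE-cKO libraries for these 5 genes. Snap25 (-0.62, adjusted p = 0.0798) and Cplx2 (-0.03, adjusted p = 0.953) did not pass.

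Activity-regulated genes were raised mainly in 1 library. Of 24 immediate early genes, 8 rose and none fell (median 1.03), and SE-cKO replicate 3, the library high in mitochondrial rRNA, was the highest of the 3 for 23 of them. The list level was 0.51, 0.12 and 1.95 in SE-cKO replicates 1 to 3, against -0.50 to 0.32 in sham-cKO. Fos was at 6.65, 7.82, 15.9 and 19.8 CPM in sham-cKO and 31.9, 33.2 and 144 CPM in SE-cKO (2.48, standard error 0.61, adjusted p = 0.0197), and Atf3, a factor of injured cells, at 0.804, 0.950, 1.18 and 0.981 CPM in sham-cKO and 12.1, 59.5 and 67.7 CPM in SE-cKO (5.57, standard error 0.56, adjusted p = 0.000259). Arc, Egr1 and Npas4, classical genes of neuronal firing, did not pass (1.25 (adjusted p = 0.282), 0.69 (adjusted p = 0.525) and 1.83 (adjusted p = 0.177)). Without SE-cKO replicate 3, 5 rose and 1 fell, the median was 0.27, and Fos was no longer called, as without sham-cKO replicate 1. Leaving out sham-cKO replicate 1 gave 4 rises, and sham-cKO replicate 2, 3 or 4 gave 5. With sham-cKO replicate 2 and SE-cKO replicate 3 both left out, 5 rose and 3 fell. What sets replicate 3 apart was not tested.

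Of 23 neuropeptide and growth factor genes, 8 rose (median 0.61), or 5 with 1 fall without SE-cKO replicate 3. Leaving out replicate 1 or 4 of sham-cKO also gave 5 rises. With sham-cKO replicate 2 and SE-cKO replicate 3 both left out, 6 rose and 2 fell. Hbegf, a ligand of the EGF receptor, was at 11.6, 12.2, 10.5 and 9.31 CPM in sham-cKO and 45.1, 36.5 and 52.8 CPM in SE-cKO (2.04, standard error 0.16, adjusted p = 8.91e-05), with similar values in all 3 SE-cKO libraries. Penk, proenkephalin, was at 7.51, 8.36, 14.1 and 10.4 CPM in sham-cKO and 44.9, 57.9 and 129 CPM in SE-cKO (2.94, standard error 0.38, adjusted p = 0.00093). Inhba, a subunit of activin, was at 7.57, 5.60, 4.44 and 4.70 CPM in sham-cKO and 12.4, 63.6 and 474 CPM in SE-cKO (5.04, standard error 1.03, adjusted p = 0.00903), and Nptx2, a pentraxin that clusters AMPA receptors, at 11.6, 31.2, 17.8 and 14.6 CPM in sham-cKO and 43.4, 101 and 584 CPM in SE-cKO (3.69, standard error 0.81, adjusted p = 0.0124). Both spanned more than an order of magnitude among the SE-cKO libraries, with replicate 3 the highest. The prodynorphin gene Pdyn changed by -0.70 (adjusted p = 0.118).

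Of 30 ribosomal protein genes, 12 rose (median 0.46). Rplp0, a stalk protein, was at 215, 225, 206 and 176 CPM in sham-cKO and 506, 559.7 and 317 CPM in SE-cKO (1.17, standard error 0.19, adjusted p = 0.00339), and Rps2 at 263, 239.9, 253 and 225 CPM in sham-cKO and 484, 484 and 348 CPM in SE-cKO (0.84, standard error 0.14, adjusted p = 0.00357). SE-cKO replicate 3 was the lowest SE-cKO library for both, and 25 of the 30 rose without it. Leaving out SE-cKO replicate 2 or sham-cKO replicate 4 gave 6 rises, and leaving out SE-cKO replicate 1 or sham-cKO replicate 1 or 3 gave 7. Of 28 oxidative phosphorylation genes, 4 fell (median -0.32). Sdha, a subunit of complex II, was at 352, 332, 339 and 328 CPM in sham-cKO and 261, 226 and 256 CPM in SE-cKO (-0.45, standard error 0.10, adjusted p = 0.0137). With SE-cKO replicate 3 or sham-cKO replicate 1, 2 or 3 left out, 1 of the 28 fell, and with SE-cKO replicate 2 left out, 2. Of 24 cholesterol synthesis genes, 2 rose and 1 fell (median -0.05), beside 13.8% and 8.92% of all genes tested. The call of the gene that fell, Insig1 (-0.42, adjusted p = 0.0405), held in 7 of 17 alternatives. Among 24 heat shock and oxidative stress genes, 9 rose and 2 fell. Mt1, a metallothionein on chromosome 8 from 94178883 to 94180327, was at 112, 108, 105 and 107 CPM in sham-cKO and 499, 388 and 574 CPM in SE-cKO (2.17, standard error 0.14, adjusted p = 3.59e-05), and Hmox1, heme oxygenase 1, at 2.55, 1.84, 3.52 and 2.74 CPM in sham-cKO and 16.9, 24.2 and 18.2 CPM in SE-cKO (2.89, standard error 0.24, adjusted p = 0.000117). Gclc, which limits glutathione synthesis, changed by -0.48 (adjusted p = 0.013), and the mitochondrial superoxide dismutase Sod2 by -0.45 (adjusted p = 0.0369), a call that held in 8 of 17 alternatives.

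Genes of the LIN28 and let-7 axis were examined because Lin28a is the deleted gene. Of 22 tested, 7 rose and none fell, with a median of 0.01. Ccnd1, a G1 cyclin, was at 36.0, 33.1, 46.2 and 32.3 CPM in sham-cKO and 132.4, 86.8 and 133 CPM in SE-cKO (1.67, standard error 0.19, adjusted p = 0.000469), and Hmga1, a chromatin protein, at 11.2, 15.97, 9.88 and 10.7 CPM in sham-cKO and 27.9, 24.3 and 68.0 CPM in SE-cKO (1.74, standard error 0.36, adjusted p = 0.00907). Myc and Nras changed by 2.07 (adjusted p = 0.00605) and 0.77 (adjusted p = 0.00082). Igf2bp3, a fetal RNA-binding protein, was near the floor at 0.0247, 0.0475, 0 and 0.0499 CPM in sham-cKO and 1.07, 0.799 and 0.328 CPM in SE-cKO (4.54, standard error 0.91, adjusted p = 0.00842). Lin28b, the paralog of Lin28a, was at 4.07, 12.6, 5.26 and 5.04 CPM in sham-cKO and 3.40, 1.36 and 2.87 CPM in SE-cKO and did not pass (-1.41, adjusted p = 0.0679), with sham-cKO replicate 2 far above the other sham-cKO libraries. Dicer1 (-0.17, adjusted p = 0.349) and Igf1r (-0.22, adjusted p = 0.309) did not pass. The serotonin receptors examined in the study also did not pass in this comparison with sham-cKO: Htr1b changed by -0.70 (adjusted p = 0.278), Htr2c by -1.41 (adjusted p = 0.117) and Htr4 by 0.51 (adjusted p = 0.216). The study named these genes among potential targets from its RNA-Seq and reported their differences between SE-cKO and SE-WT by qPCR. That is another contrast and, for the qPCR, another assay. Htr2c was at 33.9, 50.6, 83.3 and 22.1 CPM in sham-cKO and 33.8, 11.1 and 8.83 CPM in SE-cKO, which overlapped. Its highest library in each group, sham-cKO replicate 3 and SE-cKO replicate 1, was the one high in choroid plexus genes. The part of choroid plexus in these values was not tested.

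In all, 112 genes that rose had 0 counts in every sham-cKO library. The 15 largest fitted rises included 14 of these, whose fitted value depends on the prior count. Among genes with at least 10 counts in every sham-cKO library, predicted genes left out, the largest fitted rise was 76.4-fold (Lilrb4a). The bounds of some of the 14, such as Ifi202b, lay above this value, and those of others, such as Tnfsf8 (42.7-fold), did not. Ifi202b, an interferon-inducible DNA sensor, reached 27.2, 39.8 and 6.002 CPM in SE-cKO, at least 552-fold above the floor. Saa3, an acute phase apolipoprotein, reached 12.04, 14.7 and 3.42 CPM (at least 228-fold), and Apoc2, the cofactor of lipoprotein lipase, 8.97, 7.18 and 3.32 CPM (at least 147-fold). For these 3 genes SE-cKO replicate 3 was the lowest library. The reverse held for Serpinb2, plasminogen activator inhibitor 2, at 0.153, 1.16 and 14.8 CPM, Etv3l, an ETS-family factor, at 0.384, 4.05 and 35.3 CPM, and Krt75, a keratin, at 0.486, 2.01 and 10.2 CPM. Without SE-cKO replicate 3 these 3 genes were still called. Serpinb2 and Etv3l were not called without SE-cKO replicate 2, nor Serpinb2 without sham-cKO replicate 1 or 4. Serpina3m (21.7, 1.75 and 26.1 CPM) was lowest in replicate 2, and its reads may be shared with close relatives such as Serpina3n. Cyp4f18, Fam110c, Tnfsf8 and the genes Oas3, Mmp3, Il1rn and Tnf given above completed the list with Tgm1.

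The largest falls were mostly of weakly expressed genes. Chrna3, a nicotinic receptor subunit, went from 0.247, 2.99, 0.709 and 0.798 CPM to 0, 0 and 0.104 CPM (-5.08, adjusted p = 0.0319), and Cldn22, a claudin, from 2.13, 2.17, 1.28 and 0.981 CPM to 0, 0.200 and 0.0298 CPM (-4.38, adjusted p = 0.0144). Tdo2, the tryptophan-degrading enzyme of mature granule cells, went from 7.48, 8.79, 4.60 and 7.26 CPM to 0.934, 1.85 and 0.447 CPM. The adult beta-globin gene Hbb-bt went from 5.27, 1.76, 13.4 and 6.15 CPM to 1.01, 1.36 and 0.313 CPM (-2.89, adjusted p = 0.0229). For Chrna3, Cldn22, Tdo2, Sptssb, Etnppl, Dgkk, Smim32, Olfr287, Btn2a2 and Iyd, sham-cKO replicate 2 was the highest library, with Etnppl, an enzyme of phospholipid metabolism in astrocytes, at 7.71, 36.0, 8.48 and 8.86 CPM and 2.52, 2.504 and 2.40 CPM. The calls of Chrna3 and Sptssb were lost without it, without sham-cKO replicate 4 and without SE-cKO replicate 1 or 2. Those of Hbb-bt, Etnppl and Smim32 were lost without any 1 of the SE-cKO libraries, and those of Dgkk, Rtl3, Fgf16, Otof and Scgn without at least 1 library. Olfr287 (-2.35, adjusted p = 0.000881), Btn2a2 (-2.34, adjusted p = 0.00598), Otof (-2.49, adjusted p = 0.0224), Scgn (-2.44, adjusted p = 0.0286), Rtl3 (-3.42, adjusted p = 0.0312) and Fgf16 (-3.07, adjusted p = 0.0229) were the others besides Iyd. Among the 10 called genes with the highest mean CPM in SE-cKO were Actb, cytoplasmic actin, at 1597, 1645, 1700 and 1657 CPM in sham-cKO and 3331, 3473 and 2791 CPM in SE-cKO (0.95, standard error 0.11, adjusted p = 0.000617), and Ctsd, the lysosomal protease cathepsin D, at 329, 357, 390 and 326 CPM in sham-cKO and 3074, 2999 and 1878 CPM in SE-cKO (2.92, standard error 0.19, adjusted p = 3.46e-05). Sptan1, a spectrin (-0.50, adjusted p = 0.0145), and Cpe, the carboxypeptidase of peptide processing (-0.69, adjusted p = 0.0142), fell.

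The same contrast in WT mice gave 951 rises and 173 falls among 20803 genes tested. Medians in cKO and WT were 4.06 and 2.94 for reactive astrocytes, 3.43 and 2.35 for the cell cycle and 2.19 and 1.87 for homeostatic microglia. CA pyramidal genes had similar medians (-0.79 and -0.78). Other lists had a smaller median change in cKO than in WT. Among them were granule cell genes (-0.52 and -0.92), oligodendrocyte precursor genes (0.78 and 1.01) and myelin genes (0.16 and 0.43). The 167 receptor, channel and release genes had a median of -0.74 in cKO and -0.07 in WT, where 2 fell. In the WT comparison, however, genes of striatal neurons had a median of 2.90 and thalamic genes of 1.57, against -0.95 and -1.90 in cKO. The cKO median of the thalamic list was 0.11 without sham-cKO replicate 2. The part of neurons from other regions in the difference between genotypes was not tested, and different numbers of calls do not show different effects.

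**Figure D4:**
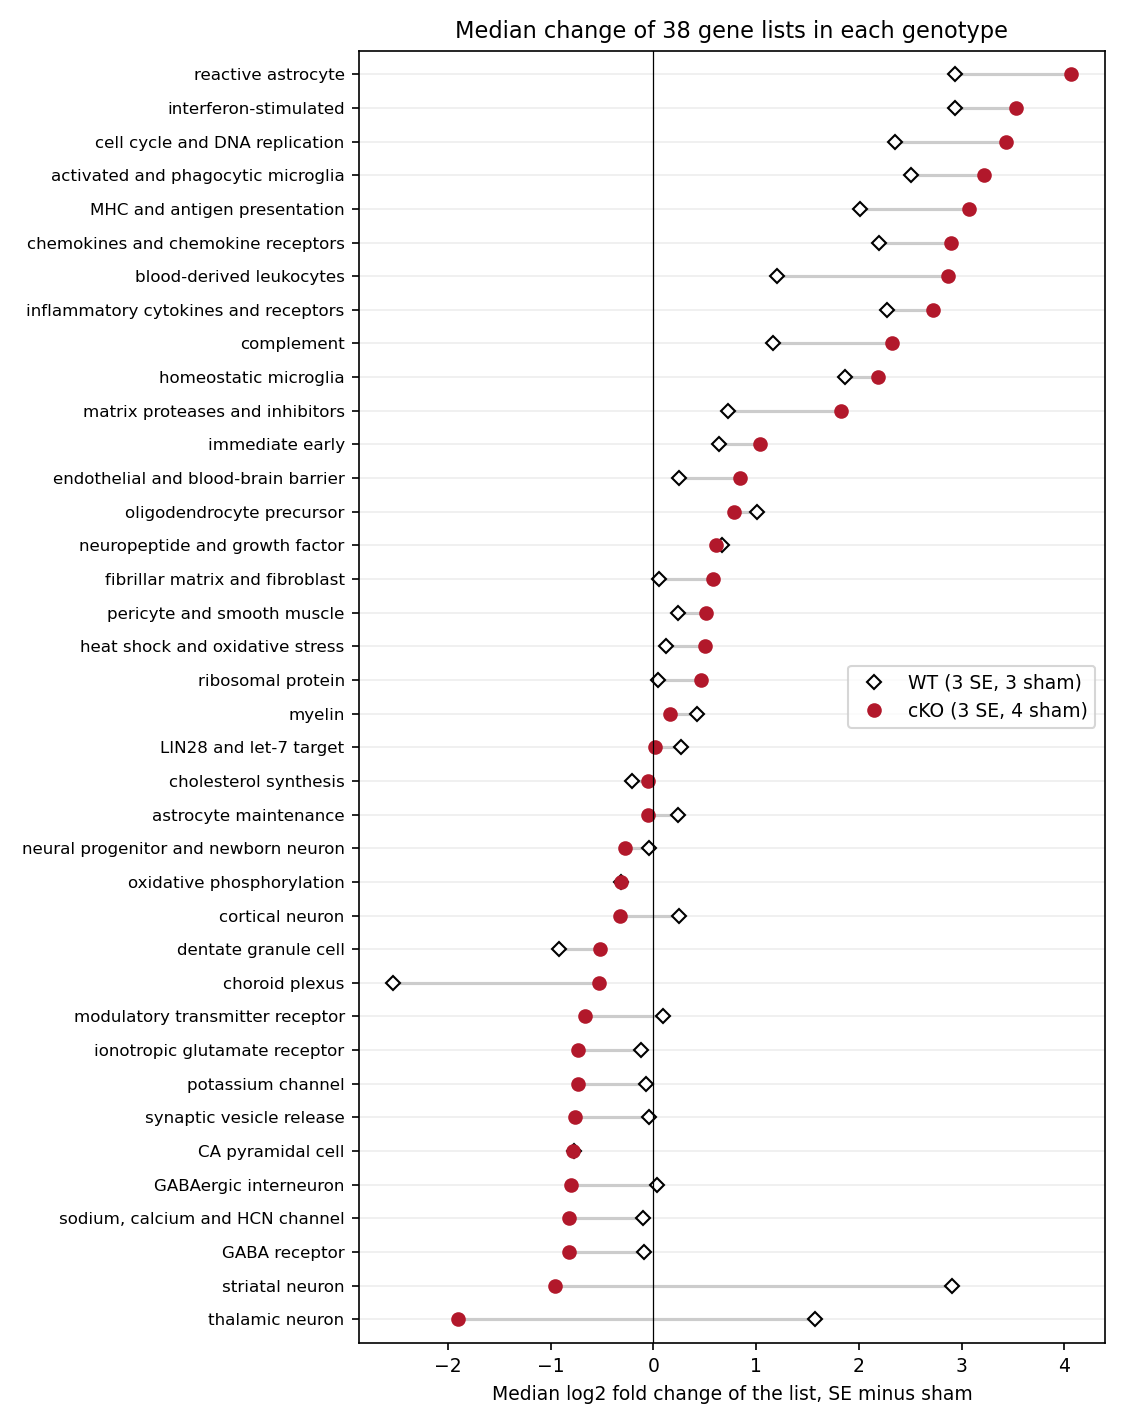
Median log2 fold change after SE of 38 gene lists (x axis) in cKO (filled circles, 3 SE and 4 sham libraries) and WT (open diamonds, 3 SE and 3 sham libraries), joined by a line for each list. Reactive astrocyte genes had medians of 4.06 and 2.94 in cKO and WT, GABA receptor genes of -0.82 and -0.09, and the lists of striatal and thalamic neurons differed most.

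The difference itself was tested as an interaction of genotype and SE over all 13 libraries. It passed for 36 of 22596 genes (0.159%), of which 19 had a more positive change in cKO and 17 a more negative one. All 19 of the former rose in cKO, and 12 of them also rose in WT. Cd9 went from 31.3 ± 3.35 CPM (SD, n = 4) to 255 ± 25.1 CPM (SD, n = 3) in cKO and from 37.3 ± 4.57 CPM (SD, n = 3) to 131 ± 7.97 CPM (SD, n = 3) in WT (interaction on the log2 scale 1.22, standard error 0.17, adjusted p = 0.0418). Col4a6, a basement membrane collagen, went from 3.19 ± 0.672 CPM (SD, n = 4) to 28.4 ± 3.56 CPM (SD, n = 3) in cKO and from 3.96 ± 0.827 CPM (SD, n = 3) to 8.55 ± 0.496 CPM (SD, n = 3) in WT (interaction 2.04, standard error 0.28, adjusted p = 0.0418). Hspb8, a small heat shock protein, had log2 fold changes of 1.99 in cKO and 0.78 in WT (interaction 1.22, standard error 0.18, adjusted p = 0.0418), and Tvp23a, a Golgi membrane protein, of 1.31 and 0.32 (interaction 0.99, standard error 0.14, adjusted p = 0.0418). Other members of this group were Mt1, Itgam, Col12a1 and Serpinf1.

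Of the 17 genes with a negative interaction, 14 had a fitted change of the opposite sign in WT. Kcnk9 went from 68.1 ± 7.97 CPM (SD, n = 4) to 23.1 ± 4.54 CPM (SD, n = 3) in cKO and from 53.8 ± 3.20 CPM (SD, n = 3) to 59.0 ± 8.51 CPM (SD, n = 3) in WT (interaction -1.69, standard error 0.22, adjusted p = 0.0418). Hectd4, a ubiquitin ligase, went from 420 ± 31.9 CPM (SD, n = 4) to 223 ± 11.7 CPM (SD, n = 3) in cKO and from 346 ± 19.4 CPM (SD, n = 3) to 368 ± 19.5 CPM (SD, n = 3) in WT (interaction -1.003, standard error 0.14, adjusted p = 0.0418). Shisa9, an auxiliary protein of AMPA receptors, differed between genotypes by -1.68 (standard error 0.27, adjusted p = 0.0418). For all 17, the sham-cKO mean was above the sham-WT mean and the SE-cKO mean was below the SE-WT mean. Of the 19 genes with a positive interaction, 2 had a sham-cKO mean above the sham-WT mean. All 19 had an SE-cKO mean above the SE-WT mean. Both the sham and the SE levels thus entered the interaction values. The CPM of cKO and WT libraries were scaled separately. The number of interaction calls changed with the libraries included. All calls lay near the threshold, with adjusted p from 0.0418 to 0.0493 in the edgeR test. Without 1 library at a time, 0 to 177 genes passed, with 177 without SE-cKO replicate 3. It was 0 when any sham-WT library, replicate 1, 3 or 4 of sham-cKO or replicate 2 of SE-cKO was left out. SE-WT replicate 3 shared the title style of SE-cKO replicate 3 and its high mitochondrial rRNA (4.83% of counts). When the fit included Xist expression as a covariate, 0 passed.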

How the data were processed

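The strand setting and the handling of multi-mapping reads are not given in the sources used here. Per the labels and the study's methods, the authors sequenced hippocampal RNA of single mice, used bcl2fastq 2.20.0 and Trimmomatic on the reads, HISAT2 2.1.0 for alignment (mm10) and StringTie 2.1.3b for assembly and quantification. The authors deposited 1 table of 45777 genes with read counts per gene, FPKM and TPM for 13 libraries. The counts were used for all tests. The deposited TPM entered only mean columns that are not printed, and the deposited FPKM were not used. Gene IDs matched the RefSeq gene table in 45679 cases (99.8%).

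Counts were analysed in R 4.3.3 with edgeR 4.0.16: genes with at least 10 counts in enough libraries and 15 in all were kept, libraries were scaled by TMM, and a robust quasi-likelihood test compared 3 SE-cKO with 4 sham-cKO libraries, with Benjamini-Hochberg adjustment and a threshold of 0.05. A second test required a change over 2-fold. The interaction used all 13 libraries. The common biological coefficient of variation was 0.365. Replicates differed by 52.1 to 326 times the counting variance over all genes compared, and p-values measure the spread between libraries of single mice. That spread also holds the differences in thalamic genes, choroid plexus genes and mitochondrial rRNA given above. For genes near the floor, depth limits precision. Genes with 0 counts in every sham-cKO library are given against a floor of 3 counts per library, which covers counting error only.

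The lists and members were chosen with earlier results of these data known. Named genes were the 15 largest rises and falls (at least 1 CPM in the higher group, no overlap, predicted genes left out), the 5 genes per list that had the lowest p, members called against their list, the 10 called genes with the highest CPM, Lin28a, Lin28b, Htr1b, Htr2c and Htr4, and 6 interaction genes. Some genes that this rule names are not reported here. Other genes named were chosen after their values were seen. Promoters were searched on both strands in 300-base windows. Alternatives were DESeq2 1.42.0, limma 3.58.1 voom, other scalings, no filter, all libraries in 1 fit, a replicate block, Xist as a covariate, small RNA left out and each library left out. Leaving out sham-cKO replicate 2 with SE-cKO replicate 3 was added after seeing the data. The fit was tested on simulated data.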

Additional observations from a re-analysis of the deposited data

Results flagged for a closer look

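Of 92 groups of 4 sham-cKO values examined, 9 held a library far from the others, where chance flags about 1 in 20. Sham-cKO replicate 2 was far from the rest for the thalamic list (2.86) and the CA pyramidal list (-0.37), and for Etnppl (36.0 CPM), Smim32 (13.6 CPM), Lin28b (12.6 CPM) and Htr4 (21.1 CPM). The GABA receptor list stood apart in sham-cKO replicate 1 (-0.0531) and the chemokine list in sham-cKO replicate 4 (-0.14). Tgm1 was detected in sham-cKO replicate 1 only (0.0618 CPM).

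The interaction of genotype and SE passed in the main edgeR test for 14 of the genes named. Positive values, a larger rise in cKO, were found for Tagln (3.83 on the log2 scale), Col12a1 (2.29), Serpinf1 (2.11), Col4a6 (2.04), Vim (1.26), Cd9 (1.22), Hspb8 (1.22), Mt1 (1.14), Gfap (1.05), Tvp23a (0.99) and Itgam (0.93). Negative values were found for Kcnk9 (-1.69), Shisa9 (-1.68) and Hectd4 (-1.003). Each of these calls was lost when any sham-WT library, replicate 1, 3 or 4 of sham-cKO or replicate 2 of SE-cKO was left out. No gene passed in those fits, nor with a replicate block or with Xist as a covariate.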

How the results depend on the processing

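No gene called in SE-cKO against sham-cKO was called in the opposite direction in any of 17 alternatives, although the fitted sign of some named genes that did not pass, such as the choroid plexus genes Cldn2 (-2.43 to 2.88) and Otx2 (-2.16 to 0.96), changed. Rises ranged from 1698 to 3555 and falls from 760 to 2723. A replicate block gave 1698 rises, 760 falls and 724 changes over 2-fold. The numbers do not pair the mice, since same-numbered libraries deviated with r = 0.0374, 0.0106 and -0.0836. Without 1 library at a time, rises ranged from 2298 to 3051, falls from 1280 to 1875 and changes over 2-fold from 841 to 1172. Scaling by library totals gave 3212 rises and 1498 falls. The interaction, 36 genes, was less stable: DESeq2 gave 731, no filter 20, the replicate block 0 and Xist as a covariate 0. Without 1 library it ranged from 0 to 177, with 4 without sham-cKO replicate 2, and 56, 5 and 59 without SE-WT replicates 1, 2 and 3. The cause was not tested. Of the values of named genes under the alternatives, 3763 stayed on the same side of the threshold, 223 lost a call and 43 gained one.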
